A study of Homo sapiens with 12 samples.

Results

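The insulin-like growth factor (IGF) system was followed here through 10 genes: the ligands IGF1 and IGF2, the receptors IGF1R, IGF2R and INSR, the adaptors IRS1 and IRS2, and the binding proteins IGFBP2, IGFBP4 and IGFBP6. Every probe set of the array whose platform annotation names 1 of these genes alone was taken, which gave 26 of the 54613 probe sets that are not array controls, for 9 of the 10 genes. The 3 probe sets of IGF2 are annotated jointly to INS-IGF2 and were not analysed here. TC71 and TC32, established human cell lines of Ewing sarcoma, were measured in 4 groups of 3 arrays: TC71 given 100 nM mithramycin, TC71 given solvent control, TC32 given 100 nM mithramycin and TC32 given solvent control, each for 6 h. Mithramycin is an antibiotic that binds GC-rich DNA and is known as an inhibitor of the EWSR1-FLI1 fusion protein that drives this tumour. The labels call the replicates biological, and each p-value measures the spread between these arrays. Each line stands for 1 tumour, and the time is a single early one.

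IGF1 and IGF2 are secreted peptides that activate IGF1R, a receptor tyrosine kinase closely related to the insulin receptor INSR. Activated receptors phosphorylate the docking proteins IRS1 and IRS2, which recruit phosphoinositide 3-kinase and GRB2, while IGF2R, which has no kinase, takes IGF2 up for degradation and the IGFBP proteins hold the ligands in the extracellular space. Signalling through IGF1R is known to be needed for transformation by EWSR1-FLI1, and antibodies to the receptor have been tried in patients with Ewing sarcoma.

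Of the 9 Ewing sarcoma markers examined, 8 had a probe set of their own and all 8 lay above the array median on every array. CCK was close to the median in TC71, at a mean of 4.77 in both groups, against 11.52 with mithramycin and 11.31 in control in TC32. Of 15 markers of blood, endothelial, epithelial, fibroblast and skeletal muscle cells, 10 lay below the array median on every array. MYOD1 lay above it on all 12 arrays, and PECAM1, LUM, DCN and DES on 6, 4, 6 and 8. The fibroblast marker DCN, a matrix proteoglycan, had a mean log2 value of 8.60 in TC71 with mithramycin, 8.15 in TC71 control, 4.04 in TC32 with mithramycin and 4.14 in TC32 control. Array medians lay between 4.38 and 4.47. RNA integrity was read from beta-actin, as the log2 value of its 3' probe set less that of its 5' probe set. It was 0.79, 0.86 and 0.99 on the TC71 mithramycin arrays, against 2.0, 1.08 and 1.28 on the TC71 control arrays, and lay between 0.51 and 0.74 on all TC32 arrays. The same difference for GAPDH was 0.14, 0.10 and 0.13 on the TC71 mithramycin arrays and 0.12, 0.08 and 0.11 on the TC71 control arrays. On the TC32 arrays the GAPDH difference lay between 0.05 and 0.10.

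Because mithramycin binds GC-rich DNA, the sequences before the starts of the receptor and adaptor genes, which are GC-rich, and of IGF1, which are not, are shown. RefSeq promoters (GRCh38.p14) were matched for 9 of the 10 genes, 12 starts in all. The 250 bases before the start are printed 5' to 3' on the gene's strand, with the GC box core GGGCGG, searched on both strands (CCGCCC on the opposite one), in capitals. Neighbouring copies that share bases were counted separately.
IGF1R, chr15:98648289-98648538, + strand: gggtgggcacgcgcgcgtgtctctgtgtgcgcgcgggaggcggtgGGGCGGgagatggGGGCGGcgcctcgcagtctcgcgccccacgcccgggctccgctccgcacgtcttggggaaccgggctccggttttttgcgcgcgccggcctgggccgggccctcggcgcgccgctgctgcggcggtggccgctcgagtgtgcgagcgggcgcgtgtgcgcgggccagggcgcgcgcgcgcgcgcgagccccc
INSR, chr19:7294415-7294664, - strand: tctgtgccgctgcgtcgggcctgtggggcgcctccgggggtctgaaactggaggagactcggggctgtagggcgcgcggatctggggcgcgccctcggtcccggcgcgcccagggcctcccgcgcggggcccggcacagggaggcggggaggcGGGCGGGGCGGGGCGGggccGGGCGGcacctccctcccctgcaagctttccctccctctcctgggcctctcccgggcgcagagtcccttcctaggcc
IGF2R, chr6:159968832-159969081, + strand: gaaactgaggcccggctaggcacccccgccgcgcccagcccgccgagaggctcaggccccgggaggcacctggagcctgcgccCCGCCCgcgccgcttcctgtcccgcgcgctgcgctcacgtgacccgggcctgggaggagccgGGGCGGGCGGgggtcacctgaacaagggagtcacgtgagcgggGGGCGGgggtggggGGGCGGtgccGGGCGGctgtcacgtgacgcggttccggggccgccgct
IRS1, chr2:226799821-226800070, - strand: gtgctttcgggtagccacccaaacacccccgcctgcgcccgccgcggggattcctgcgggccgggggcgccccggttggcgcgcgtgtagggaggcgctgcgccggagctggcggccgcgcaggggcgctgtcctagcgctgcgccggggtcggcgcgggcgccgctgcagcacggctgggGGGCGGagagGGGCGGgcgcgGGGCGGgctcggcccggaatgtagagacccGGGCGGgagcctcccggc
IRS2, chr13:109786584-109786833, - strand: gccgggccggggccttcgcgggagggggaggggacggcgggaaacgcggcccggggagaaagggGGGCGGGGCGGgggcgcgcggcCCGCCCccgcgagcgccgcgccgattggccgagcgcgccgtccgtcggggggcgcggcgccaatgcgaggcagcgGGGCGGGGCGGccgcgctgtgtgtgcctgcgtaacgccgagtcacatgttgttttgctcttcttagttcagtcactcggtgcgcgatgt
IGF1, upstream start, chr12:102481748-102481997, - strand: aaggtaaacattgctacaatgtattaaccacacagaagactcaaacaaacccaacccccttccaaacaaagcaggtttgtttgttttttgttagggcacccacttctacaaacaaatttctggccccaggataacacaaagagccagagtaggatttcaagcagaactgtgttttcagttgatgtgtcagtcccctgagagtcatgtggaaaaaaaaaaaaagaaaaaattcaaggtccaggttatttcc
IGF1, downstream start, chr12:102478551-102478800, - strand: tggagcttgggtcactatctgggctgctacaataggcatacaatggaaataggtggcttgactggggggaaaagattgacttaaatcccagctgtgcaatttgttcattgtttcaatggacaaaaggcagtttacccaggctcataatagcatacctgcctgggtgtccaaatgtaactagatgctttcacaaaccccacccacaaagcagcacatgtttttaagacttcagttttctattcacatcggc
The IGF1R sequence had 81.2% GC and 2 GC box cores, the INSR sequence 78.4% and 4, the IGF2R sequence 79.2% and 6, the IRS1 sequence 80.8% and 4, and the IRS2 sequence 76.4% and 5. Among the 35116 promoters of the table the median GC content was 58.0% and 42.6% held at least 1 core, so all 5 were GC-rich, each above at least 91.9% of the promoters. The IGF1 starts had 39.6% and 44.0% GC and 0 cores. IGFBP4 and IGFBP6 had 71.6% and 61.2% GC with 1 core each, and the 3 IGFBP2 starts had 56.8%, 69.2% and 56.4% GC with 1, 1 and 0 cores. At least as many cores as IGF1R were held by 24.3% of the promoters, as INSR or IRS1 by 7.6%, as IRS2 by 4.1% and as IGF2R by 2.2%. These matches describe letters in a window. Binding was not measured, and a link of GC content or cores to the changes with mithramycin was not tested.

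**Figure D1:**
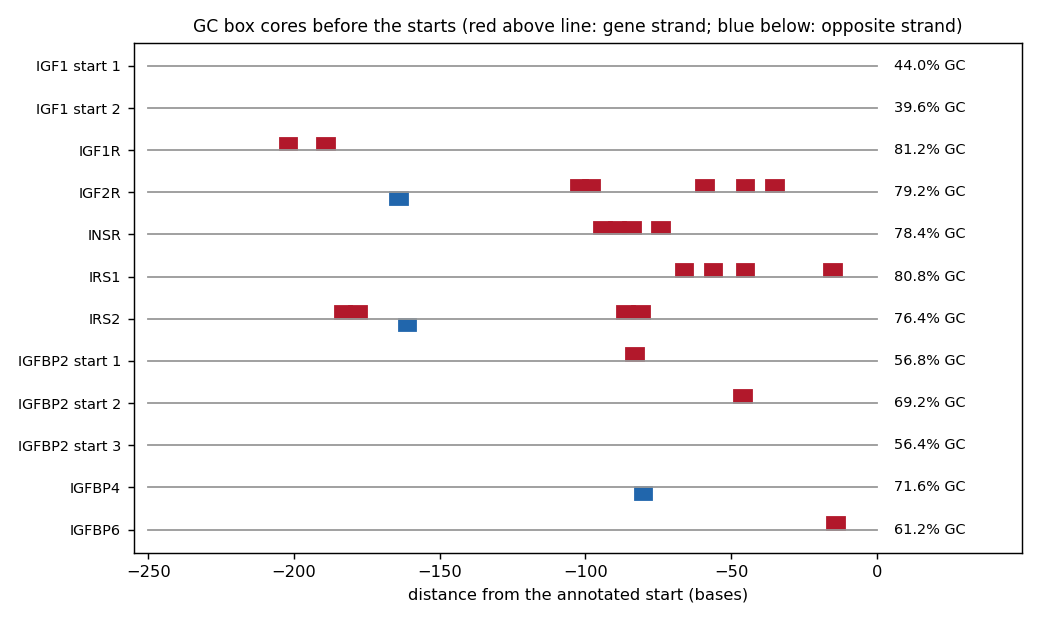
Each row is the 250 bases before 1 annotated start of a member gene, with the distance from the start in bases on the horizontal axis; red blocks above the line are GC box cores on the gene's strand and blue blocks below it are cores on the opposite strand. The receptor and adaptor genes hold 2 to 6 cores, the binding protein genes 0 or 1 and the IGF1 starts 0.

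With mithramycin the receptor and adaptor mRNAs were lower in both lines, whereas IGFBP2, IGFBP4 and IGFBP6 differed by at most 0.32 on the log2 scale. In TC71, 17 of the 26 probe sets were called lower and 0 higher, and in TC32 14 were called lower and 1 higher (limma, adjusted p under 0.05). Across the array 13.7% of probe sets were called lower and 14.5% higher in TC71, and 16.9% lower and 19.4% higher in TC32. The share of members called lower was 65.4% in TC71 and 53.8% in TC32, above these backgrounds. The median change of the members on the log2 scale was -0.48 in TC71 and -0.57 in TC32, against 0.05 and 0.06 for all probe sets. As the members were chosen with earlier results of these data known and several sets measure the same gene, these comparisons are a description. The 14 sets called lower in both lines belonged to IGF1, IGF1R, IGF2R, INSR, IRS1 and IRS2. Another 3 sets, 1 each of IGF2R, INSR and IGFBP4, were called lower in TC71 and not in TC32. How many of all probe sets were called lower in both lines was not counted, so these counts have no background beside them. In the mean of both lines 18 sets were called lower and 1 higher, against 19% and 26.4% of all probe sets. Of the 26 sets 5 lay below the array median on all 12 arrays (1 of IGF1, 2 of IGF1R and 2 of INSR), and 1 of these 5 was called lower in TC71. Groups of 3 arrays often separate. Across the array 45.1% of probe sets in TC71 and 44.7% in TC32 had no overlap of treated and control arrays, in either direction. Among the 26 member sets 20 in TC71 and 18 in TC32 had none. Separation with lower treated arrays was found at 10227 of the 54613 probe sets in TC71 and 10394 in TC32. Separation at a single set, given below, is thus a description of its values. In RNA from a whole culture, less RNA per cell and fewer cells that express a gene cannot be told apart.

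**Figure D2:**
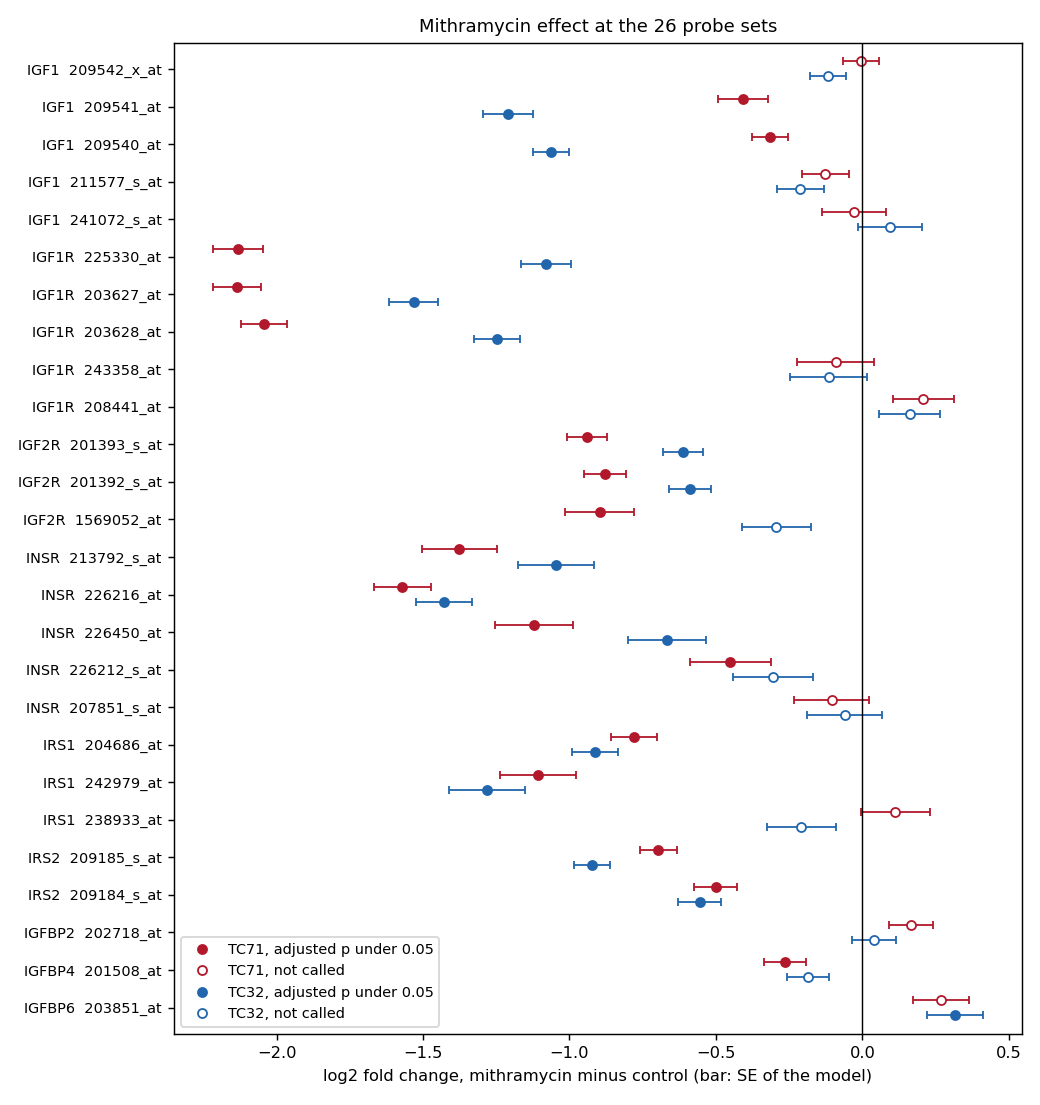
Log2 fold change with mithramycin (horizontal axis, mithramycin minus control) at each of the 26 probe sets, red for TC71 above blue for TC32; bars are standard errors of the model and filled points have an adjusted p under 0.05. IGF1R reaches -2.14 in TC71, the IGF1 sets 209541_at and 209540_at lie further left in TC32 than in TC71, and the binding proteins lie between -0.26 and 0.32.

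In TC71 the 3 bright IGF1R sets fell furthest of the 26, and in TC32 203627_at did, while INSR 226216_at (-1.43) and IRS1 242979_at (-1.28) were below the other IGF1R sets there. Its set 225330_at, the brightest of the 5, stood at log2 values of 6.29, 6.14 and 6.42 on the TC71 mithramycin arrays, against 8.42, 8.42 and 8.41 on the TC71 control arrays. In TC32 it stood at 7.31, 7.52 and 7.37 with mithramycin, against 8.55, 8.55 and 8.36 in controls. The groups did not overlap in either line, and the controls of both lines stood at nearly the same level while the treated TC71 arrays were the lowest of the 12. Mithramycin left 22.8% of the control signal in TC71 and 47.3% in TC32. On the log2 scale the signal fell by 2.13 ± 0.09 in TC71 (SE, n = 3 per group; limma adjusted p = 2.45e-09) and fell by 1.08 ± 0.09 in TC32 (limma adjusted p = 5.80e-07).

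The sets 203627_at and 203628_at of IGF1R were lower with mithramycin as well. 203627_at read 5.83, 5.82 and 5.85 with mithramycin in TC71, against 7.98, 8.01 and 7.92 in TC71 controls, and 6.13, 6.45 and 6.20 with mithramycin in TC32, against 7.76, 7.88 and 7.73 in TC32 controls. 203628_at read 4.90, 4.99 and 5.15 with mithramycin in TC71, against 7.10, 6.99 and 7.09 in TC71 controls, and 5.85, 5.98 and 5.77 with mithramycin in TC32, against 7.11, 7.15 and 7.08 in TC32 controls. No treated array of either set overlapped a control array of its line. At 203627_at 22.8% of the control signal was left in TC71 (-2.14 ± 0.08, adjusted p = 1.76e-09) and 34.6% in TC32 (-1.53 ± 0.08, adjusted p = 1.85e-08). At 203628_at 24.3% was left in TC71 (-2.04 ± 0.08, adjusted p = 1.76e-09) and 42.1% in TC32 (-1.25 ± 0.08, adjusted p = 7.27e-08).

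The remaining IGF1R sets, 243358_at and 208441_at, did not pass the test in either line. 243358_at lay between 3.40 and 4.06 and 208441_at between 3.28 and 3.95 over the 12 arrays, below every array median. Their changes were -0.09 (95% interval -0.38 to 0.19) and 0.21 (-0.02 to 0.44) in TC71, and -0.11 (-0.40 to 0.17) and 0.16 (-0.07 to 0.39) in TC32. What these dim sets detect was not tested.

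**Figure D3:**
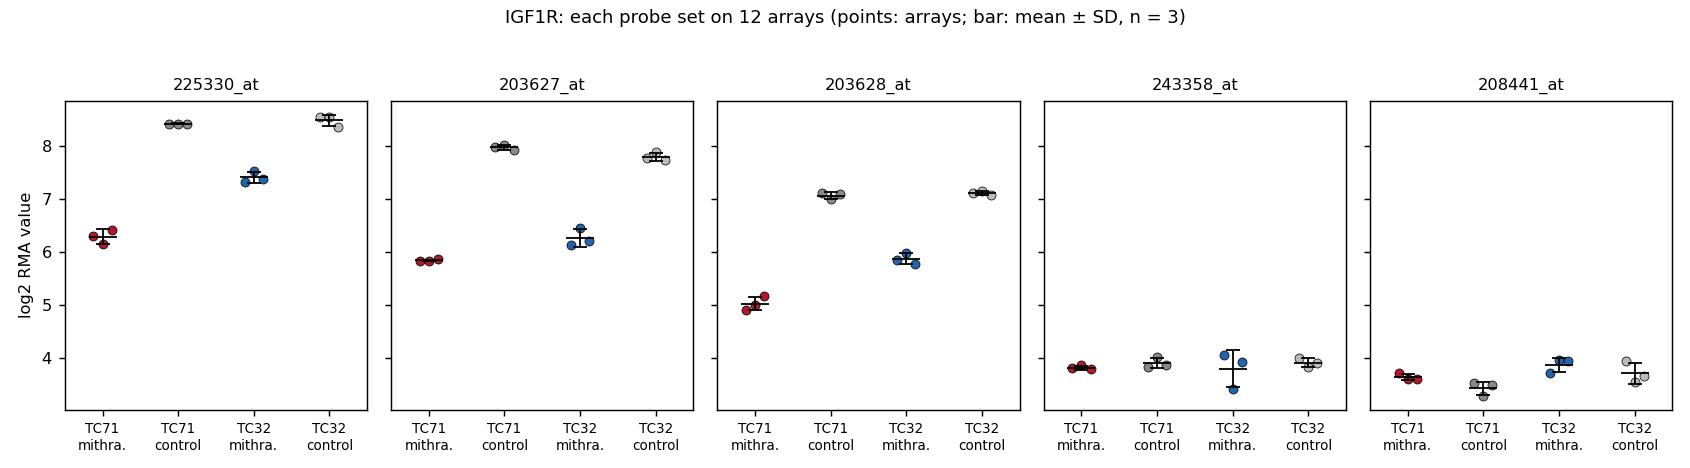
Log2 RMA values of the 5 IGF1R probe sets on the 12 arrays, by group, on 1 vertical scale; points are arrays and bars are the mean ± SD of 3. At the 3 left sets the TC71 mithramycin arrays are lowest and the TC32 mithramycin arrays next, while the 2 right sets stay between 3.28 and 4.06 in all groups.

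The fall of IGF1R was larger in TC71 than in TC32. The TC71 effect minus the TC32 effect was -1.05 ± 0.12 at 225330_at (adjusted p = 1.96e-04), -0.80 ± 0.11 at 203628_at (adjusted p = 7.41e-04) and -0.60 ± 0.12 at 203627_at (adjusted p = 6.69e-03). Across the array 2.48% of probe sets were called lower for this difference and 4.38% higher, against 4 and 2 of the 26 member sets. At 203627_at the call was lost with arrays centred on hybridization controls (-0.37, adjusted p = 0.146). Without TC71 control array 1, the array with the highest beta-actin value, the TC71 changes were -2.13 at 225330_at, -2.13 at 203627_at and -2.02 at 203628_at.

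INSR, the insulin receptor, fell in both lines at 3 of its 5 sets. 226216_at read 4.81, 4.73 and 4.51 with mithramycin in TC71, against 6.21, 6.29 and 6.27 in TC71 controls, and 5.03, 5.04 and 5.31 with mithramycin in TC32, against 6.66, 6.47 and 6.53 in TC32 controls. 213792_s_at, the brightest set, read 5.61, 4.99 and 5.31 with mithramycin in TC71, against 6.73, 6.73 and 6.58 in TC71 controls, and 5.82, 5.61 and 5.70 with mithramycin in TC32, against 6.66, 6.71 and 6.90 in TC32 controls. All treated arrays lay below all controls at both sets. The signal left was 33.7% of control in TC71 and 37.2% in TC32 at 226216_at (-1.57 ± 0.10 and -1.43 ± 0.10, adjusted p = 8.87e-08 and 1.29e-07), and 38.5% and 48.4% at 213792_s_at (-1.38 ± 0.13 and -1.05 ± 0.13, adjusted p = 3.62e-06 and 3.01e-05).

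The third set of INSR, 226450_at, had changes of -1.12 ± 0.13 in TC71 and -0.67 ± 0.13 in TC32 (adjusted p = 2.97e-05 and 1.54e-03). The dim set 226212_s_at was at -0.45 in TC71 (adjusted p = 0.0264). That call was lost with the beta-actin value added to the model (-0.29, adjusted p = 0.354), with centring on hybridization controls (-0.37, adjusted p = 0.0691), and without TC71 mithramycin array 1 (-0.37) or 3 (-0.46) or TC71 control array 1 (-0.38) or 3 (-0.45). The dimmest, 207851_s_at, was at -0.11 in TC71 and -0.06 in TC32 and was not called. The effects on INSR were not shown to differ between the lines, the differences of the 5 sets lying between -0.45 and -0.04 with adjusted p from 0.207 to 0.938.

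IGF2R, the receptor that clears IGF2, fell at 2 of its 3 sets in both lines. 201393_s_at read 7.76, 7.59 and 7.71 with mithramycin in TC71, against 8.60, 8.63 and 8.65 in TC71 controls, and 7.85, 7.96 and 7.94 with mithramycin in TC32, against 8.59, 8.44 and 8.56 in TC32 controls. The groups were separate in each line, with 52.1% of control left in TC71 and 65.4% in TC32 (-0.94 ± 0.07 and -0.61 ± 0.07, adjusted p = 3.63e-07 and 1.17e-05). 201392_s_at had changes of -0.88 ± 0.07 in TC71 and -0.59 ± 0.07 in TC32 (adjusted p = 1.01e-06 and 2.53e-05). The dimmer 1569052_at fell by 0.90 ± 0.12 in TC71 (adjusted p = 7.44e-05) and was at -0.29 ± 0.12 in TC32 (adjusted p = 0.0692). This set lay below the array median on 9 of the 12 arrays. Its control mean was 4.64 in TC71 and 4.29 in TC32, the latter below every array median, so a fall in TC32 had less room to show. The difference between the lines at this set was -0.60 ± 0.17 (adjusted p = 0.0492), and it was lost on leaving out any 1 array (10 of 12 fits) other than TC71 mithramycin array 2 or TC32 mithramycin array 1, with values from -0.61 to -0.52. It was also lost with quantile normalization run again (-0.57, adjusted p = 0.0721) and with centring on hybridization controls (-0.36, adjusted p = 0.2035).

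The adaptor genes fell in both lines from control levels that ranked the lines in opposite ways. IRS1 (204686_at) read 6.67, 6.63 and 6.63 with mithramycin in TC71, against 7.45, 7.47 and 7.35 in TC71 controls, and 7.99, 8.23 and 7.94 with mithramycin in TC32, against 8.97, 9.04 and 8.90 in TC32 controls. IRS2 (209185_s_at) read 9.46, 9.43 and 9.45 with mithramycin in TC71, against 10.15, 10.13 and 10.15 in TC71 controls, and 7.63, 7.67 and 7.62 with mithramycin in TC32, against 8.46, 8.62 and 8.61 in TC32 controls. None of the 4 groups overlapped another at these sets: the order from high to low was TC32 control, TC32 mithramycin, TC71 control, TC71 mithramycin for IRS1 and TC71 control, TC71 mithramycin, TC32 control, TC32 mithramycin for IRS2.

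Mithramycin left 58.2% of the IRS1 control signal in TC71 and 53.1% in TC32 (-0.78 ± 0.08 and -0.91 ± 0.08, adjusted p = 8.08e-06 and 1.33e-06). For IRS2 it left 61.7% in TC71 and 52.7% in TC32 (-0.70 ± 0.06 and -0.92 ± 0.06, adjusted p = 2.40e-06 and 1.28e-07). The second IRS1 set, 242979_at, had changes of -1.11 ± 0.13 in TC71 and -1.28 ± 0.13 in TC32, and 238933_at, the dimmest, was at 0.11 (95% interval -0.14 to 0.37) in TC71 and -0.21 (-0.46 to 0.05) in TC32. The second IRS2 set, 209184_s_at, had changes of -0.50 ± 0.07 in TC71 and -0.56 ± 0.07 in TC32 (adjusted p = 1.79e-04 and 5.57e-05). For the brightest sets the difference between the lines was 0.13 (95% interval -0.11 to 0.38) for IRS1 and 0.23 (0.04 to 0.42; adjusted p = 0.173) for IRS2, neither called.

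The ligand gene IGF1 gave different answers at different probe sets. 209541_at read 8.5, 8.42 and 8.40 with mithramycin in TC71, against 8.90, 8.80 and 8.85 in TC71 controls, and 6.07, 5.74 and 5.99 with mithramycin in TC32, against 7.25, 7.12 and 7.07 in TC32 controls. 209540_at read 8.15, 8.19 and 8.12 with mithramycin in TC71, against 8.46, 8.43 and 8.51 in TC71 controls, and 5.89, 6.06 and 5.98 with mithramycin in TC32, against 7.07, 7.02 and 7.04 in TC32 controls. At both sets all 4 groups were separate, with a wide step down in TC32 and a narrow one in TC71. In TC71 75.4% and 80.4% of control were left (-0.41 ± 0.09 and -0.31 ± 0.06, adjusted p = 2.93e-03 and 1.85e-03), and in TC32 43.2% and 47.9% (-1.21 ± 0.09 and -1.06 ± 0.06, adjusted p = 2.12e-07 and 3.76e-08).

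At these 2 IGF1 sets the effect was less negative in TC71 than in TC32, the opposite of IGF1R. The TC71 effect minus the TC32 effect was 0.80 ± 0.12 at 209541_at and 0.75 ± 0.09 at 209540_at (adjusted p = 1.34e-03 and 2.22e-04), calls that held in each alternative run. In TC71 alone the call of 209541_at was lost with beta-actin in the model (-0.40, adjusted p = 0.0513) and that of 209540_at with centring on hybridization controls (-0.23, adjusted p = 0.101). The sets 209542_x_at, the brightest, and 211577_s_at did not pass the test in either line, at -0.01 (95% interval -0.14 to 0.13) and -0.13 (-0.30 to 0.05) in TC71 and -0.12 (-0.25 to 0.02) and -0.21 (-0.38 to -0.04; adjusted p = 0.0547) in TC32. The fifth set, 241072_s_at, lay between 1.74 and 2.17 on all arrays and was not called. At 209542_x_at the TC32 groups did not overlap, and 3 of 21 alternatives called it lower there, both centrings and the filter on a mean of at least 6 (lowest adjusted p = 0.0302). At 211577_s_at 7 of 20 did so, and the mean of both lines was called lower (-0.17 ± 0.06, adjusted p = 0.0267), a call lost in 6 of 19 alternatives.

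Of the binding proteins, which hold IGFs outside the cell, IGFBP4 was lower and IGFBP6 higher in the mean of both lines, at -0.22 ± 0.05 (adjusted p = 2.92e-03) and 0.29 ± 0.07 (adjusted p = 3.28e-03), calls that were lost in 0 of 20 alternatives each. IGFBP2 was not called in either line. IGFBP2 read 8.94, 8.94 and 9.0 with mithramycin in TC71, against 8.84, 8.71 and 8.83 in TC71 controls, and 10.81, 10.71 and 10.63 with mithramycin in TC32, against 10.79, 10.57 and 10.68 in TC32 controls. Its changes of 0.16 (95% interval 0.00 to 0.33) and 0.04 (-0.12 to 0.20) were not called, whereas the lines stood far apart.

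IGFBP4 read 4.98, 4.89 and 4.98 with mithramycin in TC71, against 5.28, 5.21 and 5.15 in TC71 controls, and fell by 0.26 ± 0.07 (adjusted p = 0.0144). The call was lost without TC71 mithramycin array 2 (-0.24, adjusted p = 0.0601) or TC71 control array 1 (-0.23, adjusted p = 0.058), with beta-actin in the model (-0.24) and with centring on hybridization controls (-0.18). In TC32 IGFBP4 was at -0.18 ± 0.07 (adjusted p = 0.0625). IGFBP6 read 5.95, 6.23 and 6.13 with mithramycin in TC32, against 5.97, 5.74 and 5.65 in TC32 controls, and rose by 0.32 ± 0.10 (adjusted p = 0.0200), although the groups overlapped. That call was lost without TC32 mithramycin array 2 (0.25) or 3 (0.30) or TC32 control array 2 (0.29) or 3 (0.25), and with centring on housekeeping genes (0.24) or on hybridization controls (0.16), and in a fit of the TC32 arrays alone (adjusted p = 0.0635). In TC71 it was at 0.27 ± 0.10 (adjusted p = 0.0529). The effects were not shown to differ between the lines, at -0.08 for IGFBP4 (adjusted p = 0.763) and -0.05 for IGFBP6 (adjusted p = 0.908).

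**Figure D4:**
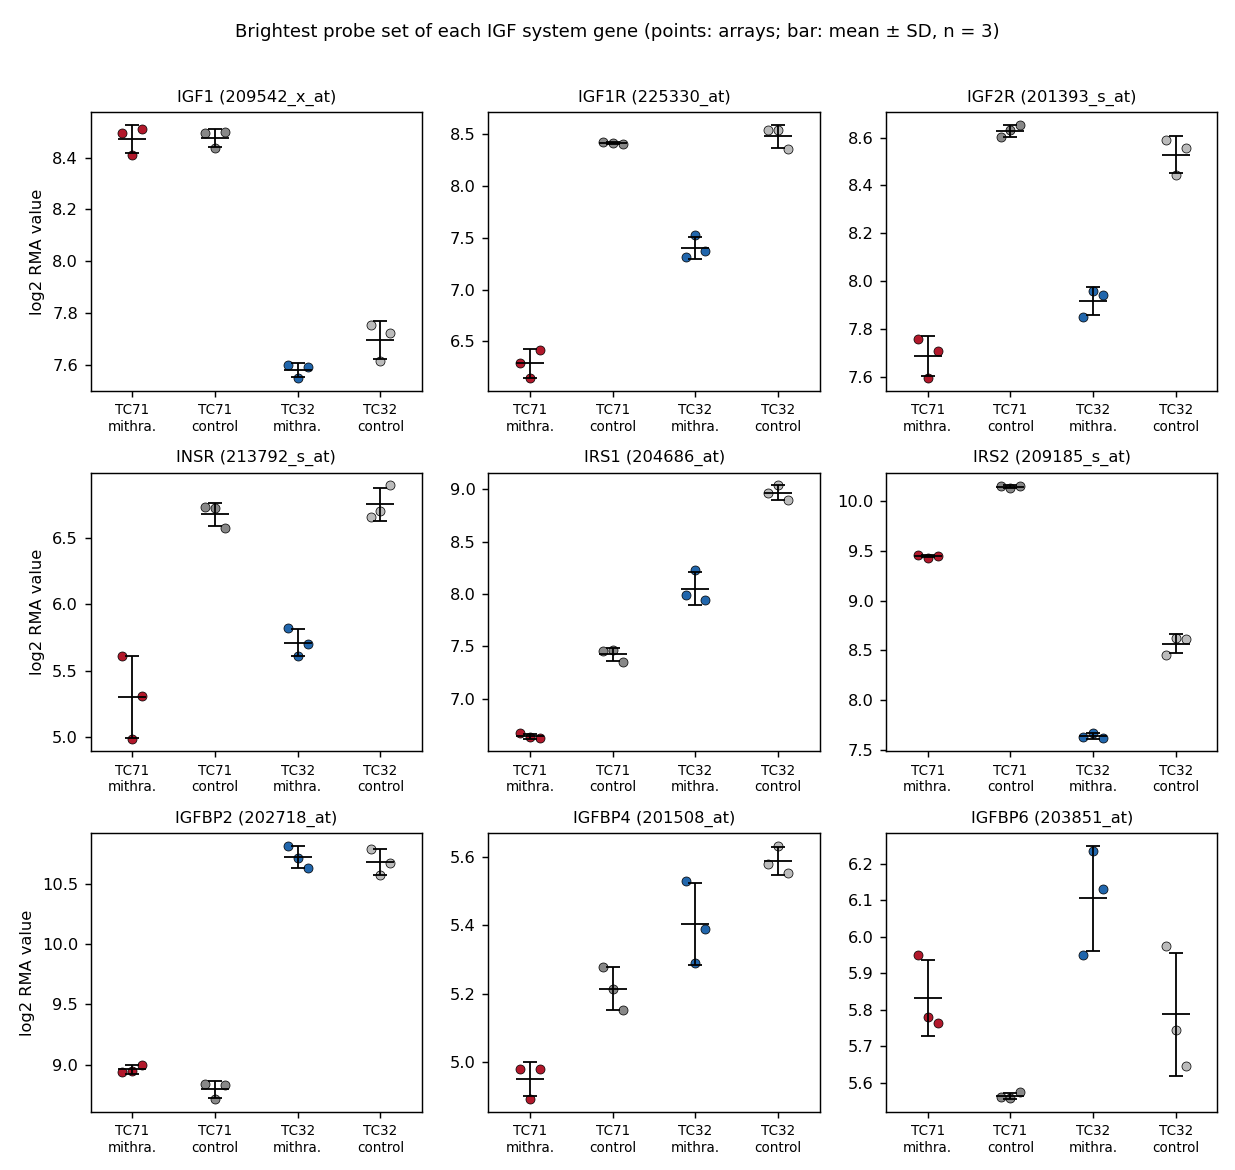
Log2 RMA values of the brightest probe set of 9 member genes on the 12 arrays, by group, each panel with its own vertical scale; points are arrays and bars are the mean ± SD of 3. IGF1R, IGF2R, INSR, IRS1 and IRS2 are lower with mithramycin in each line without overlap, a separation that is common across the array, while IGF1 at 209542_x_at and IGFBP2 separate mainly by line.

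Before treatment the lines differed most in IGF1, IRS1, IRS2 and IGFBP2. In TC71 control minus TC32 control 7 of the 26 sets were called higher and 7 lower, shares of 26.9% each, near the 20.7% and 21.9% of all probe sets. IRS2 was 2.98-fold higher in TC71 (1.58 ± 0.06, adjusted p = 1.84e-10) and IRS1 2.91-fold lower (-1.54 ± 0.08, adjusted p = 2.66e-09). IGF1 was higher in TC71 at 4 of its 5 sets, by 0.78, 0.90, 1.43 and 1.71, and IGFBP2 was 3.69-fold lower (-1.88 ± 0.07, adjusted p = 1.98e-10). IGFBP4 was at -0.37 (adjusted p = 7.52e-04), a call lost with housekeeping centring (-0.11, adjusted p = 0.213), and IGFBP6 was not called (-0.22, adjusted p = 0.078). Single receptor sets were called too: INSR 226216_at (-0.30, adjusted p = 0.0217), the dim IGF1R 208441_at (-0.28, adjusted p = 0.0455) and IGF2R 1569052_at (0.35, adjusted p = 0.0296). These calls were lost in 5, 14 and 7 of 20 alternatives. Of the 3 fibroblast markers DCN and LUM also stood higher in TC71 control than in TC32 control (log2 8.15 against 4.14 and 4.23 against 2.40). PDGFRA, dim on all arrays, was near-equal (3.01 and 2.88). The summed linear signal of the 3 genes, in which DCN weighs most, ran from 402 to 472 in TC71 with mithramycin and from 298 to 321 in TC71 control. It ran from 25.4 to 31.8 in TC32 with mithramycin and from 27.7 to 33.3 in TC32 control. The part of these markers in the differences between the lines was not tested.

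The bright IGF1R sets did not pass the test between untreated lines in the deposited values, at -0.07 (95% interval -0.25 to 0.12) for 225330_at, 0.18 (0.00 to 0.36) for 203627_at and -0.05 (-0.22 to 0.12) for 203628_at. Under mithramycin the same sets were lower in TC71, with TC71 minus TC32 at -1.12 ± 0.09, -0.42 ± 0.08 and -0.85 ± 0.08 (adjusted p = 1.52e-07, 8.22e-04 and 9.61e-07). Under mithramycin 6 member sets were called higher and 13 lower in TC71 than in TC32, against 20.6% and 22.4% of all probe sets. With housekeeping centring 6 were called higher and 6 lower, and with hybridization control centring 6 higher and 5 lower. INSR 213792_s_at (-0.41), 226216_at (-0.44) and 226450_at (-0.36) and IGF2R 201393_s_at (-0.23) and 201392_s_at (-0.30) were called lower as deposited and with neither centring. The number of lower calls thus depended on the scaling, and the calls of the whole array moved too. Of all probe sets called, 47.9% were higher as deposited, 81.0% with housekeeping centring and 83.4% with hybridization control centring. Centring on housekeeping genes moved the median of all probe sets by 0.27 for the control comparison and 0.26 for the mithramycin comparison, and centring on hybridization controls moved that of the mithramycin comparison by 0.30. With housekeeping centring 203627_at (0.45, adjusted p = 6.98e-04) and 203628_at (0.21, adjusted p = 0.0392) were called higher in untreated TC71, and 203627_at was no longer called under mithramycin (-0.16), nor was it with hybridization controls (-0.13).

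Among 31 measured genes of a list of 34 other genes of IGF signalling, 10 were called lower and 4 higher in TC71, and 10 lower and 8 higher in TC32. Of all 19775 genes, by the brightest probe set, 15.3% were lower and 17.0% higher in TC71, and 18.5% lower and 23.1% higher in TC32. In the mean of both lines 13 were lower and 9 higher, against 20.2% and 30.9% of all genes. The list's median change was 0.03 in TC71 and -0.06 in TC32, against 0.07 and 0.08 for all genes. Called changes of at least 0.5 in the mean of both lines were found for 6 genes, all lower. The share of all genes past this cut was not counted, so whether 6 is unusual cannot be read from it.

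The 6 genes act upstream of the receptor, in its signalling or on mRNA. PAPPA, a protease that frees IGFs from IGFBP4, averaged log2 4.27 with mithramycin and 7.16 in control in TC71, and 8.20 and 10.50 in TC32. Its changes were -2.89 ± 0.11 and -2.29 ± 0.11. The treated TC71 mean lay near the array medians of 4.38 to 4.47, and the set was below the array median on 2 arrays. These values are those of each gene's brightest set, and other sets differed: in the mean of both lines the sets ranged from -2.59 to 0.32 for PAPPA, -1.37 to 0.04 for IGF2BP2, -1.08 to -0.07 for SOS1, -1.14 to -0.46 for IGF2BP3, -0.81 to 0.21 for SOS2 and -0.54 to 0.14 for PTPN1. SOS1 and SOS2, exchange factors that activate RAS downstream of GRB2, had changes of -0.96 ± 0.08 and -0.81 ± 0.07 in TC71 and of -1.16 ± 0.08 and -0.80 ± 0.07 in TC32. IGF2BP2 and IGF2BP3, RNA-binding proteins named for IGF2 mRNA, had changes of -1.26 ± 0.06 and -0.94 ± 0.07 in TC71 and of -1.49 ± 0.06 and -0.94 ± 0.07 in TC32. PTPN1, a phosphatase that acts on the insulin receptor, had changes of -0.56 ± 0.06 in TC71 and -0.52 ± 0.06 in TC32.

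IGFBP3 and GRB10 were examined whatever their values. IGFBP3, the main carrier of IGFs in serum, averaged 3.47 with mithramycin and 3.25 in control in TC71, below the array median, and 5.62 and 6.64 in TC32, where it fell by 1.02 ± 0.15 (adjusted p = 1.46e-04). At its low TC71 level a fall could not have been seen, and the lines are not compared. GRB10, an adaptor that inhibits IGF1R and INSR signalling, averaged 6.86 with mithramycin and 7.52 in control in TC71. There it fell by 0.65 ± 0.13 (limma adjusted p = 2.15e-03). In TC32 GRB10 averaged 4.37 and 4.45, near the array medians of 4.38 to 4.47, and its change was -0.08 ± 0.13. The difference was not called (adjusted p = 0.0981), and at this TC32 level a fall could hardly have been seen. In the mean of both lines the 4 GRB10 sets ranged from -0.77 to -0.34.

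**Figure D5:**
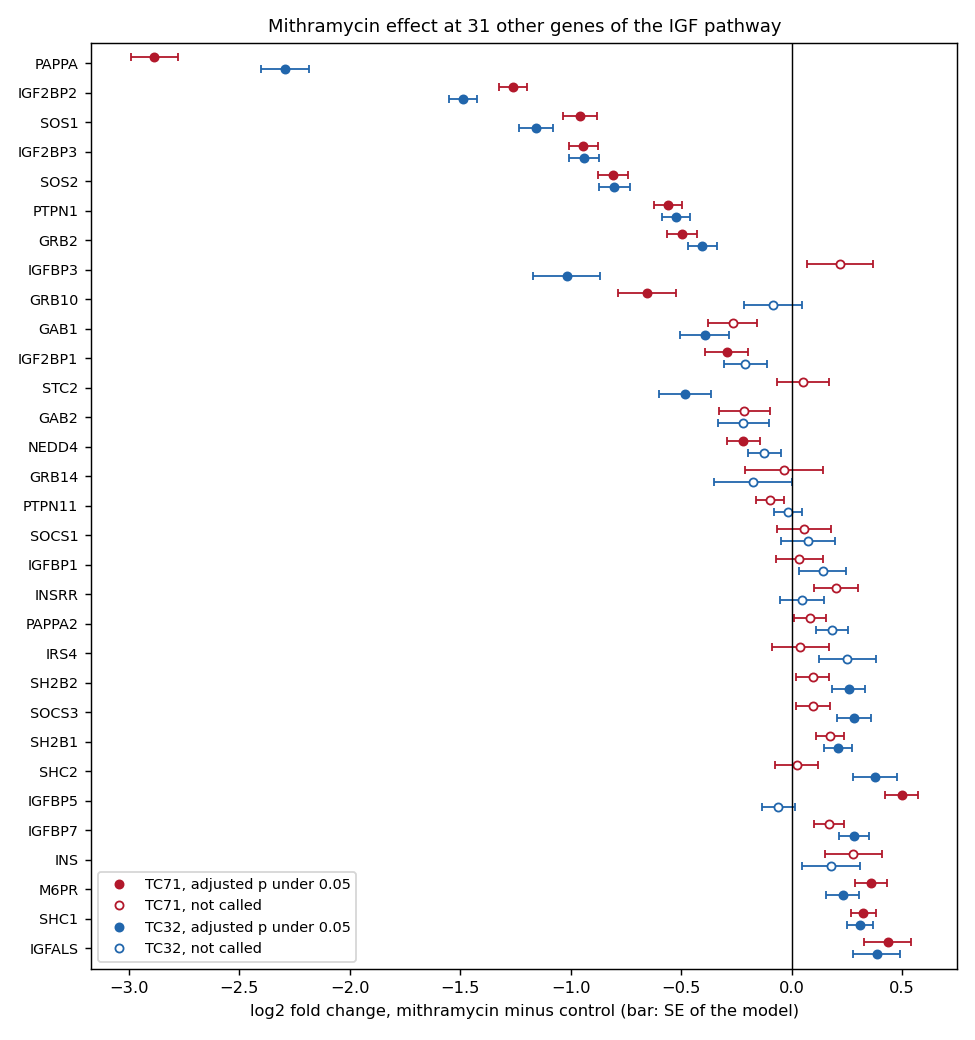
Log2 fold change with mithramycin (horizontal axis) of 31 other genes of IGF signalling, each by its brightest probe set, sorted by the mean of both lines, red for TC71 above blue for TC32; bars are standard errors of the model and filled points have an adjusted p under 0.05. PAPPA, IGF2BP2, SOS1, IGF2BP3, SOS2 and PTPN1 have the lowest means of both lines, IGFBP3 in TC32 (-1.02) and GRB10 in TC71 (-0.65) are low in 1 line, and no rise exceeds 0.50.

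The genes whose pattern was most like that of IGF1R were sought by Pearson correlation with 225330_at over the 12 arrays, among 8384 other genes with a mean of at least 6. They were R3HDM2 (0.996), KLHL29 (0.993), SBF2 (0.986), ZNF532 (0.985) and TMEM131 (0.983). The 12 arrays share 4 group levels, so they are not independent points. As they were chosen for this pattern, their changes are a description: they ran from -3.33 (KLHL29) to -0.78 (ZNF532) in TC71 and from -2.08 (KLHL29) to -0.33 (TMEM131) in TC32.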

How the data were processed

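RNA from 12 cultures was hybridised to 12 one-colour oligonucleotide arrays. Per the submitters' processing notes the deposited log2 values were made with RMA, which corrects background, quantile-normalizes probes and summarizes each probe set on the log2 scale; its version and settings are not stated there. A shift shared by most genes is largely removed by this step. Of 54675 probe sets 62 were array controls, 41091 had 1 symbol, 1801 several and 11721 were unnamed here. Of these symbols 41037 were matched by Entrez identifier to a RefSeq table (names only) and took its current spelling, which changed 0 of the member sets' symbols.

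All 54613 other probe sets were fitted together with 4 group means in limma 3.58.1 (R 4.3.3, empirical Bayes). Adjusted p-values are two-sided, Benjamini-Hochberg over all probe sets of a contrast, called under 0.05. Errors are standard errors of the model unless SD is written, and intervals are 95%. The fits were checked on simulated data. The members, the list of 34 genes and the named genes (changes of at least 0.5 in the mean of both lines, at most 10, plus PAPPA, IGFBP3 and GRB10) were chosen with earlier results of these data known, and the alternatives are given in the closing section. Same-numbered treated and control arrays correlated in their deviations between -0.09 and 0.21, so the replicate numbers were not taken as pairs. The number of arrays limits the precision.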

Additional observations from a re-analysis of the deposited data

Results flagged for a closer look

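The mithramycin effect differed between the lines at 6 probe sets of the members, by the test of the difference itself (TC71 effect minus TC32 effect, log2, adjusted p under 0.05). At IGF1R the differences were -1.05 (225330_at), -0.60 (203627_at) and -0.80 (203628_at), at IGF2R -0.60 (1569052_at), and at IGF1 0.80 (209541_at) and 0.75 (209540_at). IGF1R thus fell further in TC71, and IGF1, at these sets, in TC32. The beta-actin 3' minus 5' difference averaged 0.88 with mithramycin and 1.45 in control in TC71, and 0.60 and 0.71 in TC32 (exact permutation p = 0.1, the smallest possible, and 0.2). With it as a covariate the IGF2R difference was not called (-0.59, adjusted p = 0.154), and the other differences were. Groups of 3 arrays were too small to look for single outlying arrays.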

How the results depend on the processing

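No count of member sets called with mithramycin in either line moved by over 1.5 times with quantile normalization run again, either centring, trend and robust estimation, separate fits, beta-actin in the model or the replicate block. Leaving out each array gave 15 to 18 called member sets in TC71 (17 with all arrays), 14 to 16 in TC32 (15), 18 to 20 in the mean of both lines (19), 5 to 6 for the difference (6), 11 to 15 between controls (14) and 16 to 19 between treated lines (19), and 12 to 15, 16 to 18 and 20 to 24 list genes (14, 18 and 22). With 1 probe set a gene, of 9 possible, 7 were called in TC71, 7 in TC32, 7 in the mean, 2 for the difference, 5 between controls and 9 between treated lines. The higher calls among these were 1, 1, 1, 0, 2 and 2. By the brightest set, the main fit called 32.3%, 41.6%, 51.1%, 8.01%, 49.4% and 50.6% of all genes either way, in the same order. These shares are of the main fit, whereas the counts are of a fit of 1 set a gene. In the main fit 2 brightest sets were called higher and 3 lower between controls, near the share of 49.4%. Without the _x_at and _s_at sets, which leaves 16 member sets, 11 were called in TC71, 12 in the mean and 12 between treated lines, and 9 list genes in TC71. With a mean of at least 6, which leaves 15 list genes, 11 were called in TC32 and 14 in the mean. These last 2 runs test fewer sets, so their totals are not set against those of all sets. Some calls were gained as well. At the brightest sets the main fit called 6 lower and 0 higher in TC71 and 5 lower and 1 higher in TC32. For the difference it called 1 lower and 0 higher. With a mean of at least 6, 9 values that the main fit did not call were called. Between treated lines 12 sets (6 higher, 6 lower) were called with housekeeping centring and 11 (6 higher, 5 lower) with hybridization control centring, against 19 (6 higher, 13 lower).

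Line comparisons that changed direction and were called before or after were, with housekeeping centring, IGF1R 203628_at (0.21) and IGF2R 201392_s_at (0.26) in controls and IGF2R 201393_s_at (0.03) with mithramycin, and, with hybridization control centring, IGF2R 201393_s_at (0.0695), IGF2R 201392_s_at (0.001) and IGFBP6 203851_at (0.0266) with mithramycin; these centrings move all sets of an array together. Higher calls were 51.5% of all calls in TC71 and 53.6% in TC32 as deposited, 32.7% and 37.1% with housekeeping centring, and 64.7% and 20.0% with hybridization control centring, which moved the TC32 median by -0.15 and that of the difference by 0.24. In the line comparisons the share was 48.6% in controls and 47.9% with mithramycin, 81.2% and 81.0% with housekeeping centring and 57.5% and 83.4% with hybridization control centring. With the replicate number as a block 17 sets were called in TC71, 15 in TC32, 19 in the mean and 5 for the difference; only the IGF2R 1569052_at difference was lost among member calls (adjusted p = 0.0651).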
